A study of Mus musculus with 22 samples.

Results

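The genes described here are 10 genes of bone morphogenetic protein (BMP) signalling: the ligands Bmp2, Bmp4 and Bmp7, the target genes Id1, Id2, Id3 and Id4, the inhibitory Smad gene Smad6, and the homeobox targets Msx1 and Msx2. They were chosen by name, with earlier results of these data known. All 10 matched 1 gene ID each among the 37680 of the count table. RNA was sequenced from 22 pools of whole C57BL/6 mouse embryos in which doxycycline switches on a transgene of the pluripotency factor Oct4 (genotype ROSA26tg/+; Oct4tg/+) or Nanog (ROSA26tg/+; Nanogtg/+). Induced and control pools of a line carried the same alleles, and the mothers, 6 to 7 weeks old, had been mated with double homozygous males. For E9.5, induced mothers drank doxycycline from E6.5, and each pool held 3 embryos, with 3 Oct4-induced pools, 3 Oct4-line controls, 3 Nanog-induced pools and 2 Nanog-line controls. For E7.5, induced mothers were injected with doxycycline at E4.5 and then drank it, and each pool held 8 to 12 embryos, with 3 Oct4-induced pools, 3 Oct4-line controls, 3 Nanog-induced pools and 2 Nanog-line controls. Control mothers received no doxycycline, and no group received it without a transgene. The labels do not name the cells in which the transgenes were active.

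BMP ligands are secreted proteins that bind pairs of type I and type II receptors, which phosphorylate Smad1, Smad5 and Smad9. These receptor Smads join Smad4, enter the nucleus and raise the transcription of a set of early targets, among them the Id and Msx genes and Smad6. Id proteins bind basic helix-loop-helix factors and keep them off DNA, Msx proteins are homeobox repressors, and Smad6 blocks the receptors in a negative feedback loop. In the gastrulating mouse embryo Bmp4 from the extraembryonic ectoderm is needed for mesoderm and germ cells, and Bmp2 from the visceral endoderm for heart and extraembryonic tissues.

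RefSeq promoters (assembly GRCm38.p6, 250 bases before to 50 after the transcription start) were at hand for 7 of the 10 genes: Bmp4, Id2, Id3, Id4, Smad6, Msx1 and Msx2. Bmp2, Bmp7 and Id1 have no entry in that table. Each was searched on both strands for the Smad-binding palindrome GTCTAGAC, the GC-rich palindrome GGCGCC of BMP-responsive enhancers and the octamer ATGCAAAT that Oct factors bind. Smad6, Id3 and Id4 are printed because Smad6 and Id3 passed the test in all 4 inductions and Id4 had the largest fold change of the 10 genes at E9.5. Capitals mark a match to a searched motif. The Smad6 sequence is chr9:64022010-64022309 (minus strand), that of Id3 chr4:136143572-136143871 (plus strand) and that of Id4 chr13:48260866-48261165 (plus strand).
Smad6: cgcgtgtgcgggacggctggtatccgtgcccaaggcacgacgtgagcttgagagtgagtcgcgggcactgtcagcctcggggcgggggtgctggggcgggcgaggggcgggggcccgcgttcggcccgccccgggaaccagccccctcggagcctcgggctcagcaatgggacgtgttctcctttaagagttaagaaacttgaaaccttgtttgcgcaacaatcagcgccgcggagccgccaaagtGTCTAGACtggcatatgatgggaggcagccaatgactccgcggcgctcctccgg
Id3: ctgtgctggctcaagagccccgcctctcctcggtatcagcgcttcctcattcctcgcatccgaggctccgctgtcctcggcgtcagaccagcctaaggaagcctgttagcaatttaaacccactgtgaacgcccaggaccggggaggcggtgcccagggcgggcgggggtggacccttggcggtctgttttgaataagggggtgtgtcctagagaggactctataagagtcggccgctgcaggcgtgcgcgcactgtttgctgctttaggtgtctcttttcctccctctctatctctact
Id4: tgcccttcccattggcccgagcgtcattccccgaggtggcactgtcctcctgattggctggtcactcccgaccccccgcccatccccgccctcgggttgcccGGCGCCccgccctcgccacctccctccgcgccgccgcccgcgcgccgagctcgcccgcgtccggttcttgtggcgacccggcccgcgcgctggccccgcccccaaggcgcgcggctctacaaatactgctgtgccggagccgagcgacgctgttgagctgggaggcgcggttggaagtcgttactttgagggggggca
The Smad6 promoter held GTCTAGAC with its first base 4 bases before the start, an 8-base word found in 0.213% of the 32851 promoters of the table. Id4 held GGCGCC 148 bases before the start and Id2 held it 231 bases before the start, a word found in 11.9% of all promoters. The octamer, found in 1.74% of all promoters, was in none of the 7. A match is a description of these letters and not a measured binding site.

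The libraries held 4.72 to 42.3 M counts. Levels are in CPM, counts relative to library size, scaled by the trimmed mean of M values (TMM) over all 22 libraries, and the depth behind a value of the 10 genes ran from 6 counts (Id4 in a Nanog-induced pool at E7.5) to 6531 counts (Id2 in an Oct4-line control at E7.5). The induced gene Pou5f1 (Oct4) read 241 to 263 CPM in Oct4-induced pools and 0.402 to 1.22 CPM in controls at E9.5, and 518 to 654 and 221 to 254 CPM at E7.5, where it is also an endogenous transcript. Nanog read 326 to 330.3 CPM in Nanog-induced pools and 1.97 to 2.28 CPM in controls at E9.5, and 57.3 to 123 and 17.4 to 23.1 CPM at E7.5, where Pou5f1 read 476 to 613 and 224 to 248 CPM in the same pools. Of a check list of 9 genes for streak, primitive blood, heart and neural tissue, 6 were above 0 in every pool. The blood gene Hba-x was at 0 in at least 1 induced pool of each line at E7.5, where it read 0 to 0.105 CPM in Oct4-induced pools, and the streak genes Mesp1 and Mixl1 were at 0 in at least 1 pool at E9.5. Among the E7.5 pools, the Nanog-induced pools stood apart in short gene models. Gene models under 80 nucleotides summed to 0.608 to 1.20 CPM there and to 31.8 to 37.1 CPM in their controls. Mitochondrial genes took 5.27 to 8.26% and 3.30 to 3.63% of counts. In the Oct4 line at E7.5 the short models summed to 32.4 to 43.8 CPM in induced pools and 30.5 to 56.5 CPM in controls. At E9.5 all groups were low, with 0.603 to 1.16 CPM in Oct4-line and 1.38 to 1.66 CPM in Nanog-line controls. The comparisons of stages in controls thus cross the same library difference. Scaling without mitochondrial genes and gene models under 200 nucleotides left the same 4 member genes called for Nanog at E7.5. In the comparisons of stages it left 7 and 10 called in the Oct4 and Nanog line. The labels name 2 sequencers without saying which read each library, so sequencing batch, line and treatment cannot be told apart. The labels do not say that the pools came from separate litters, so p-values measure the spread between these pools.

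**Figure D1:**
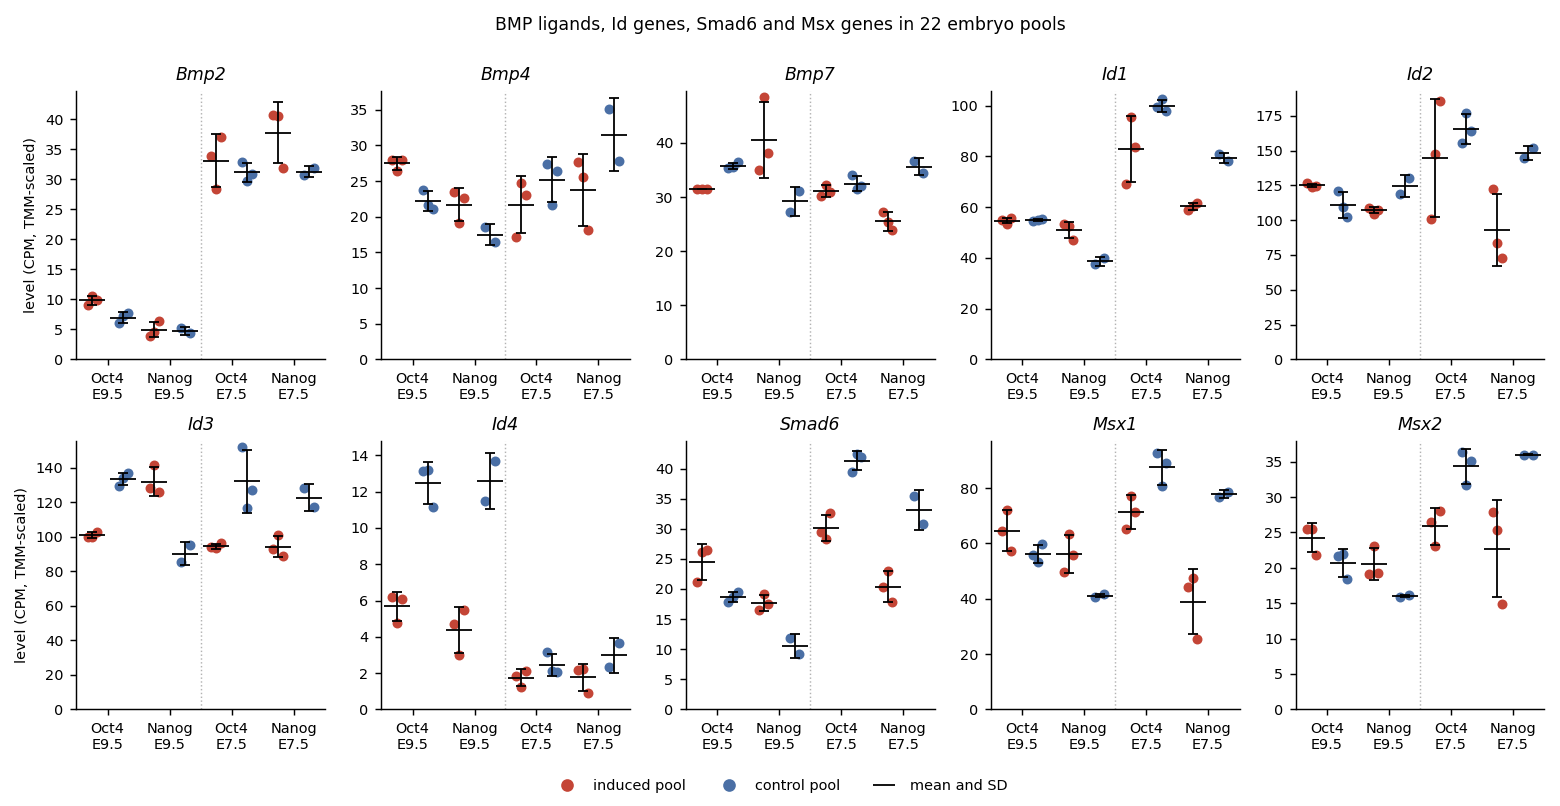
Level of each of the 10 genes in the 22 pools, on the y axis in TMM-scaled CPM. The x axis gives line and stage, with E9.5 left of the dotted line and E7.5 right of it, red points are induced pools, blue points are control pools, and black lines are the mean and SD of a group (n = 3, or 2 for Nanog-line controls). Id4 is lower in the induced than in the control pools of both lines at E9.5, and Bmp2 lies at 10.6 CPM or less at E9.5 and at 28.3 CPM or more at E7.5.

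Compared per kilobase of exon (FPKM, from the same scaled counts), the Id genes other than Id4 were the most abundant of the 10 in every group. In Oct4-line controls at E9.5, Id2 stood at 87.4 ± 7.16 FPKM, Id3 at 74.5 ± 2.03 and Id1 at 47.3 ± 0.245 (SD, n = 3), each gap larger than the summed SDs. Msx1 followed at 29.1 ± 1.68 FPKM, and the other 6 genes lay between 9.96 ± 0.634 for Bmp4 and 1.96 ± 0.248 for Bmp2. In that group Bmp7 and Msx2, and Msx2 and Id4, did not differ beyond their SDs. In Oct4-line controls at E7.5, Id2 (130.4 ± 8.39 FPKM), Id1 (86.2 ± 2.03) and Id3 (73.8 ± 10.2) led again, with Id1 above Id3, and Id4 was last at 1.47 ± 0.37. Id4 is best known from the developing nervous system. Msx1 made up 77.5 ± 2.59% of the summed Msx FPKM in Oct4-line controls at E9.5 and 76.4 ± 0.027% at E7.5. The shares differed by less than the SD at E9.5 and by more than the SD at E7.5. The sum was 37.5 ± 0.963 FPKM at E9.5 and 59.2 ± 4.21 FPKM at E7.5.

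Between the stages, in controls without doxycycline, 6 genes in the Oct4 line and 9 in the Nanog line were lower at E9.5, and Id4 was higher in both. In the Oct4 line 7 of 10 genes passed the edgeR quasi-likelihood test (Benjamini-Hochberg adjusted p under 0.05 over all genes tested), 1 higher and 6 lower, where 73.5% of all genes passed (36.5% higher, 37.1% lower), and 8 did not overlap between stages, as 77.3% of all genes did not. In the Nanog line 10 of 10 passed, 1 higher and 9 lower, where 63.8% of all genes passed (31.8% higher, 32.0% lower), and all 10 did not overlap, as 83.0% of all genes did not. With such shares a count of calls says little about these genes, and the sizes are what the comparison gives. The median log2 fold change of the 10 genes was -0.63 in the Oct4 line and -0.88 in the Nanog line, against -0.02 and 0.01 over all genes tested.

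Bmp2 had the largest fall of the 10 in both lines. Its level was 5.99, 7.17 and 7.71 CPM in E9.5 and 32.8, 29.7 and 30.9 CPM in E7.5 controls of the Oct4 line (log2 fold change -2.18 ± 0.11, adjusted p = 1.85e-08). In the Nanog line it was 5.25 and 4.32 CPM at E9.5 and 30.7 and 31.9 CPM at E7.5 (log2 fold change -2.71 ± 0.15, adjusted p = 4.9e-09). The stages did not overlap in either line. Visceral endoderm, a tissue known to express Bmp2 at E7.5, moved the same way: its 9 markers summed to 109 to 118 CPM at E9.5 and 3866 to 5011 CPM at E7.5 in Oct4-line controls. Maternal decidua, which also expresses Bmp2, did so too: its 5 markers summed to 7.14 to 13.5 CPM at E9.5, with Prl3c1 at 0, and to 79.3 to 144 CPM at E7.5. Prl8a2, a prolactin family gene of the decidua, was 0.105 to 1.83 CPM at E9.5 and 63.3 to 120.1 CPM at E7.5, while Dcn of the same list averaged 7.40 CPM at E9.5 and 1.15 CPM at E7.5. The part of these tissues in the Bmp2 difference was not tested. In RNA of whole embryos, fewer cells of a type and less RNA per cell cannot be told apart.

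Id4 ran the other way, with 13.1, 13.2 and 11.2 CPM at E9.5 and 3.14, 2.11 and 2.04 CPM at E7.5 in Oct4-line controls (log2 fold change 2.35 ± 0.19, adjusted p = 7.63e-07). In Nanog-line controls it stood at 11.5 and 13.7 CPM at E9.5 and 2.31 and 3.66 CPM at E7.5 (log2 fold change 2.04 ± 0.23, adjusted p = 5.14e-06). Pax6, a marker of the neural tube and eye, was 57.6 to 59.3 CPM at E9.5 and 0.721 to 1.29 CPM at E7.5 in Oct4-line controls, and its part in the Id4 difference was not tested. Smad6 was lower at E9.5, with a log2 fold change of -1.17 ± 0.07 in the Oct4 line and -1.65 ± 0.15 in the Nanog line. The values were -0.89 ± 0.05 and -1.04 ± 0.07 for Id1, -0.66 ± 0.07 and -0.92 ± 0.07 for Msx1, and -0.75 ± 0.09 and -1.17 ± 0.11 for Msx2, in the Oct4 and the Nanog line. Bmp7 of the Nanog line no longer passed without E7.5 control 2 (adjusted p = 0.109) or E9.5 control 2 (0.281), with library totals in place of TMM (0.0737) or with DESeq2 (0.236). Id2 of that line no longer passed without E9.5 control 2 (0.0712) or with 1 model over all 22 libraries (0.347). Bmp4 passed in the Oct4 line without E7.5 control 2 (0.00763) and with no filter on low counts (0.0264). Bmp4, Bmp7 and Id3 did not pass in the Oct4 line, with 95% intervals of -0.45 to 0.03, -0.04 to 0.27 and -0.21 to 0.19. With library totals in place of TMM the median of all genes of the Oct4-line stage comparison moved to 0.18, and Bmp7 passed (adjusted p = 0.00228).

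Oct4 induction was then compared with the controls of its line and stage. At E9.5 it split the 10 genes: Bmp4, Id2 and Smad6 were higher and Id3 and Id4 lower. These are 5 of 10 genes past the test, where 9.29% of all genes passed (4.69% higher, 4.61% lower), and 7 of 10 did not overlap with their controls, as 28.3% of all genes did not. At E7.5, 9 of the 10 fold changes were below 0 and Id3 and Smad6 passed, both lower, where 6.17% of all genes passed (2.25% higher, 3.91% lower). There 5 of 10 did not overlap, as 23.6% of all genes did not. The median log2 fold change was 0.19 at E9.5 and -0.28 at E7.5, against 0.00215 and 0.02 over all genes tested.

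Nanog induction gave 8 of 10 genes past the test at E9.5, where 28.4% of all genes passed: Bmp7, Id1, Id3, Smad6, Msx1 and Msx2 were higher (15.4% of all genes) and Id2 and Id4 lower (13.0% of all genes). With 2 control pools, 9 of 10 did not overlap, as 55.0% of all genes did not. The induced libraries held 4.77 to 5.63 M counts and the control libraries 15.7 to 15.8 M. Mitochondrial genes took 2.23 to 2.44% and 2.82 to 2.88% of their counts. At E7.5 Bmp7, Id1, Id3 and Smad6 passed, all lower, where 7.78% of all genes passed (2.96% higher, 4.82% lower), and 9 of the 10 fold changes were below 0. All 10 genes did not overlap there, as 44.6% of all genes did not. The median log2 fold change was 0.39 at E9.5 and -0.57 at E7.5, against 0.00375 and 0.00344 over all genes tested. The 6 higher calls at E9.5 depend on the control pools used: set against the E9.5 controls of the Oct4 line, an alternative chosen after seeing the data, only Id4 of the 10 passed, and 390 genes in all. With the controls of both lines pooled, again only Id4 passed, and 138 genes in all, against 3772 with the controls of the Nanog line. The ranges of embryonic globin genes did not overlap in these pools. Hba-x read 390.3 to 543 CPM in Nanog-induced pools and 1069 to 1376 CPM in Nanog-line controls, and Hbb-bh1 334 to 486 and 1680.0 to 2105 CPM. The part of blood RNA in the values of the 10 genes was not tested.

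**Figure D2:**
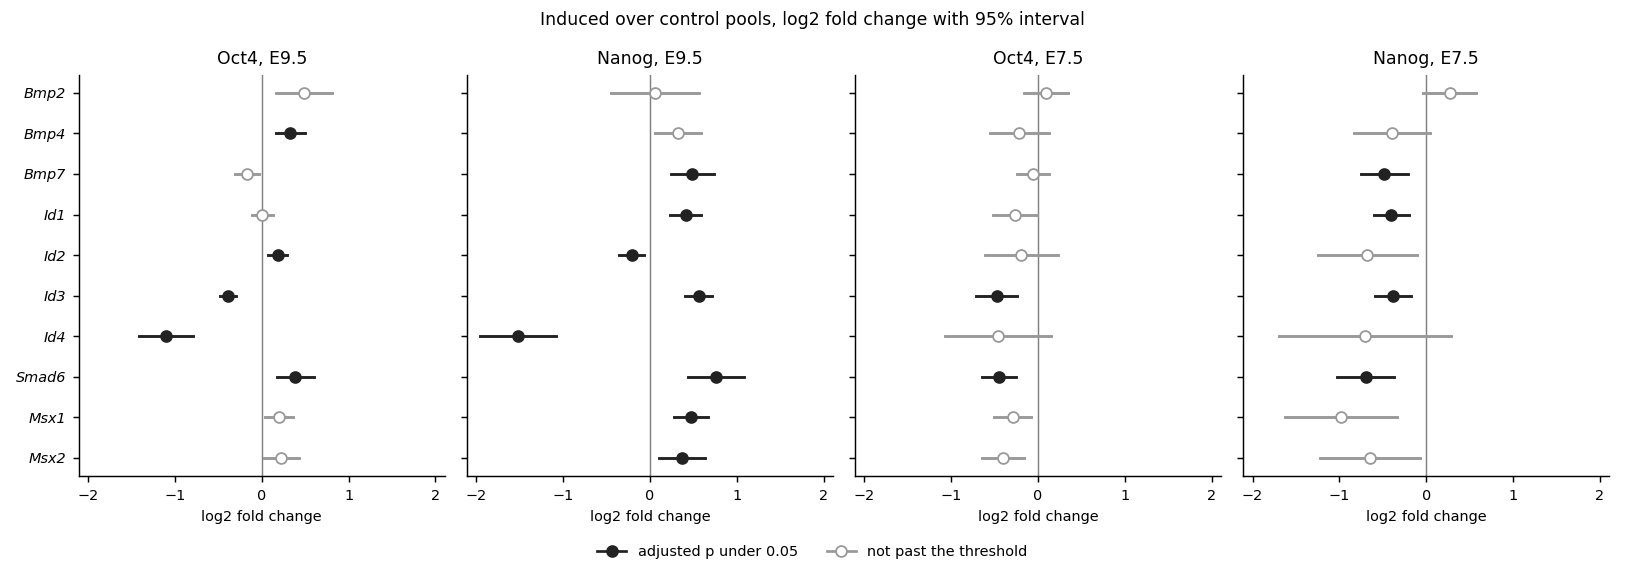
Log2 fold change of induced over control pools for the 10 genes in the 4 inductions. Points are edgeR estimates, lines their 95% intervals, and filled points passed an adjusted p under 0.05. Id4 lies furthest below 0 at E9.5 in both lines, at -1.10 and -1.52, and Smad6 lies above 0 at E9.5 and below 0 at E7.5 in both.

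Id3 passed in all 4 inductions. At E9.5 its level was 99.8, 100.1 and 103 CPM in Oct4-induced pools, against 129.6, 134 and 137 CPM in controls (log2 fold change -0.39 ± 0.04, adjusted p = 1.07e-05). It was 129, 142 and 126 CPM in Nanog-induced pools, against 85.7 and 95.0 CPM in Nanog-line controls (log2 fold change 0.56 ± 0.07, adjusted p = 7.52e-05). The groups did not overlap in either line, and the directions were opposite. The 3 Nanog-induced pools lay at about the level of the Oct4-line controls, and against those controls the log2 fold change was -0.00438 (adjusted p = 0.983). The fall under Oct4 at E9.5 kept its call in every alternative run, with adjusted p of 1.98e-13 to 0.0082.

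At E7.5 Id3 stood at 94.3, 93.3 and 96.2 CPM in Oct4-induced pools, against 152, 117 and 127 CPM in controls (log2 fold change -0.48 ± 0.11, adjusted p = 0.0298). In the Nanog line it stood at 92.9, 101 and 89.0 CPM in induced pools, against 128 and 117 CPM in controls (log2 fold change -0.39 ± 0.09, adjusted p = 0.036). Both sets of groups were apart. Under Oct4 the adjusted p was 0.0758 without control 1, 0.0941 without control 3 and 0.11 without induced pool 3. In the Nanog line it was 0.371 and 0.166 without control 2 and control 3, and 0.0515 and 0.0647 without induced pools 1 and 4, and 0.0601 with limma-voom.

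Id4 gave the largest fold changes of the 10 genes at E9.5, and both were falls. In Oct4-induced pools it stood at 6.19, 4.78 and 6.06 CPM, against 13.1, 13.2 and 11.2 CPM in controls (log2 fold change -1.10 ± 0.15, adjusted p = 7.71e-05). In Nanog-induced pools it stood at 4.69, 3.01 and 5.46 CPM, against 11.5 and 13.7 CPM in controls (log2 fold change -1.52 ± 0.21, adjusted p = 0.000123). Every induced pool lay below every control pool in both lines. The difference between the lines had a 95% interval of -0.12 to 0.96 on the log2 scale. Both calls held in every alternative run, and against the Oct4-line controls the Nanog value was -1.51 (adjusted p = 0.000101). The neural genes Pax6 and Sox2 had lower ranges in the same pools. Pax6 was 34.4 to 39.5 CPM in Nanog-induced pools and 60.2 to 65.4 in controls, and 49.6 to 51.9 CPM in Oct4-induced pools and 57.6 to 59.3 in controls. Sox2, a neural and pluripotency gene, was 66.0 to 77.8 CPM in Nanog-induced pools and 93.1 to 109.5 in controls, and 87.0 to 95.8 CPM in Oct4-induced pools and 98.4 to 104 in controls. Their part in the Id4 falls was not tested. At E7.5 Id4 averaged 2.43 ± 0.614 CPM in Oct4-line controls (SD, n = 3) and did not pass in either induction, with 95% intervals of -1.07 to 0.15 under Oct4 and -1.70 to 0.29 under Nanog. The antisense model A330033J07Rik overlaps Id4 and held at most 8 counts in any library.

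Id1 passed in both Nanog inductions, in opposite directions. It stood at 53.2, 52.5 and 47.2 CPM in Nanog-induced pools at E9.5, against 37.4 and 40.0 CPM in controls (log2 fold change 0.41 ± 0.08, adjusted p = 0.00226), while Oct4-induced pools (54.8, 53.5 and 55.6 CPM) overlapped their controls (54.6, 54.9 and 55.2 CPM). The Nanog call at E9.5 was lost with pooled controls (adjusted p = 0.777). Against the Oct4-line controls the log2 fold change was -0.10 (adjusted p = 0.579). At E7.5 Id1 was 58.9, 60.5 and 61.5 CPM in Nanog-induced pools, against 80.8 and 78.0 CPM in controls (log2 fold change -0.40 ± 0.09, adjusted p = 0.0274). The groups were apart there, and the call was lost without control 2 (0.26), control 3 (0.184) or induced pool 3 (0.0554). Under Oct4 at E7.5 it was 69.3, 95.6 and 83.8 CPM in induced pools and 99.5, 103 and 97.9 CPM in controls, with no overlap and no call (log2 fold change -0.27 ± 0.11, adjusted p = 0.249). It passed there with 1 model over all 22 libraries (0.03) and without induced pool 2 (0.04).

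Id2 was higher under Oct4 at E9.5, with 126, 124 and 125 CPM in induced pools and 121, 109.6 and 103 CPM in controls (log2 fold change 0.18 ± 0.05, adjusted p = 0.03). Under Nanog at E9.5 it was lower, with 109, 105 and 108 CPM in induced pools and 119 and 130.4 CPM in controls (log2 fold change -0.21 ± 0.07, adjusted p = 0.0278). Neither pair of groups overlapped. The Oct4 call was lost without any 1 of 5 libraries, with adjusted p of 0.141 (control 2), 0.1 (control 3), 0.12, 0.0686 and 0.109 (induced pools 3 to 5). It was also lost with DESeq2 (0.208), limma-voom (0.0556) and 1 model over all 22 libraries (0.804). The Nanog call was lost without control 2 (0.0517), control 3 (0.331) or induced pool 3 (0.0677). It was also lost with library totals (0.0639), DESeq2 (0.0522), the replicate block (0.0718), 1 model (0.525), pooled controls (0.446) and the Oct4-line controls (0.797), that is in 9 of 15 alternatives. At E7.5 Id2 spread widely among induced pools, at 101, 148 and 186 CPM under Oct4 and 122, 83.4 and 73.0 CPM under Nanog, against 156, 177 and 164 and 145 and 152 CPM in their controls. It did not pass in either (adjusted p = 0.698 under Oct4 and 0.147 under Nanog), and under Nanog it passed with DESeq2 (0.0165), 1 model (0.0286), pooled controls (0.00474) and the Oct4-line controls (0.016), and without induced pool 1 (0.00152).

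Smad6, the feedback inhibitor, was higher after induction at E9.5 and lower at E7.5 in both lines. At E9.5 Smad6 was 21.1, 26.1 and 26.4 CPM in Oct4-induced pools, against 17.9, 18.6 and 19.4 CPM in controls (log2 fold change 0.39 ± 0.10, adjusted p = 0.0196). It was 16.4, 19.1 and 17.5 CPM in Nanog-induced pools, against 11.9 and 9.12 CPM in controls (log2 fold change 0.76 ± 0.15, adjusted p = 0.00175). Every induced pool was above its controls, and the Nanog-induced pools lay at about the level of the Oct4-line controls. Against those controls the Nanog value was -0.06 (adjusted p = 0.838). The Oct4 call was lost without control 1 (0.0534), control 2 (0.0842), induced pool 4 (0.0723) or induced pool 5 (0.14), and with DESeq2 (0.2) or 1 model over all 22 libraries (0.115).

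At E7.5 Smad6 stood at 29.4, 28.3 and 32.6 CPM in Oct4-induced pools, against 39.5, 42.5 and 42.0 CPM in controls (log2 fold change -0.45 ± 0.09, adjusted p = 0.0179). In Nanog-induced pools it stood at 20.4, 22.9 and 17.8 CPM, against 35.4 and 30.8 CPM in controls (log2 fold change -0.70 ± 0.15, adjusted p = 0.0225). Every induced pool was below every control pool in both lines. Without control 2 or control 3 the adjusted p was 0.064 or 0.0989 in the Oct4 line and 0.239 or 0.108 in the Nanog line. Endothelium expresses Smad6, and its 5 markers, all detected, summed to 49.4 to 75.2 CPM in Oct4-induced pools and 88.6 to 106 CPM in controls at E7.5. In the Nanog line at E7.5 the sums overlapped, at 151 to 237 CPM in induced pools and 120.4 to 156 CPM in controls, and the 5 genes did not move together. Cdh5 read 58.9 to 134 CPM in induced pools and 12.3 to 37.8 CPM in controls, Tek 2.99 to 4.71 and 14.6 to 16.1 CPM, and Kdr 68.3 to 73.9 and 76.7 to 77.3 CPM. The part of endothelium in the Smad6 values was not tested.

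At E9.5 the Msx genes were higher under Nanog. Msx1 was 49.6, 63.4 and 55.9 CPM in induced pools, against 40.7 and 41.5 CPM in controls (log2 fold change 0.47 ± 0.09, adjusted p = 0.00155). Its call was lost with 1 model over all 22 libraries (0.0842). Msx2 was 19.1, 23.1 and 19.3 CPM, against 15.9 and 16.1 CPM (log2 fold change 0.37 ± 0.13, adjusted p = 0.0357). Msx2 no longer passed without control 2 (0.176), control 3 (0.125) or induced pool 2 (0.145), with DESeq2 (0.156) or with 1 model (0.187). The groups did not overlap, and the induced pools spread more widely than the controls. Against the Oct4-line controls the values were 0.02 for Msx1 and -0.01 for Msx2. Under Oct4 at E9.5 both overlapped their controls and did not pass (log2 fold change 0.20 ± 0.08, adjusted p = 0.112 for Msx1 and log2 fold change 0.22 ± 0.09, adjusted p = 0.156 for Msx2). Msx1 passed there with no filter on low counts (0.035) and without induced pool 5 (0.0428).

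Msx1 and Msx2 had fold changes below 0 in both inductions at E7.5, and neither passed. Msx1 stood at 44.3, 47.3 and 25.4 CPM in Nanog-induced pools, against 76.7 and 78.7 CPM in controls (log2 fold change -0.98 ± 0.26, adjusted p = 0.0862), and at 65.2, 77.3 and 71.3 CPM in Oct4-induced pools, against 92.7, 80.6 and 89.2 CPM (log2 fold change -0.29 ± 0.09, adjusted p = 0.122). Msx2 stood at 27.9, 25.4 and 14.9 CPM in Nanog-induced pools, against 35.9 and 36.0 CPM (log2 fold change -0.65 ± 0.24, adjusted p = 0.162). Under Oct4 at E7.5 Msx2 was 26.5, 23.0 and 28.1 CPM in induced pools, against 36.4, 31.6 and 35.1 CPM (log2 fold change -0.41 ± 0.11, adjusted p = 0.0618), and it passed in the fit with the replicate number as a block (adjusted p = 0.0213). No pair of groups overlapped, and Nanog-induced pool 4 was lowest for both genes. The Msx1 value under Nanog passed with DESeq2 (0.00155), limma-voom (0.0486), 1 model (0.000422), pooled controls (0.00207) and the Oct4-line controls (0.00972), and without induced pool 4 (0.00312). Msx2 under Nanog passed with 1 model (0.00953) and pooled controls (0.0252), and Msx2 under Oct4 with DESeq2 (0.02) and with no filter (0.0473). Roof plate expresses Msx genes, but of its 4 markers Wnt3a, which is also a gene of the primitive streak, carried nearly the whole sum at E7.5. Wnt3a read 3.19 to 6.71 CPM in Nanog-induced pools and 16.0 to 18.2 CPM in controls, and 11.1 to 15.2 CPM in Oct4-induced pools and 24.1 to 29.4 CPM in controls. In the same pools the other 3 markers, Lmx1a, Gdf7 and Wnt1, were at 1.42, 0.152 and 0.0818 CPM or less. The 5 markers of allantois and extraembryonic mesoderm summed to 72.6 to 116 CPM in Oct4-induced pools and 198 to 211 in controls, and to 108 to 189 CPM in Nanog-induced pools and 193 to 204 in controls. Hand1, itself among the BMP-responsive factors listed below, made up most of these sums. It read 58.0 to 94.9 CPM in Oct4-induced pools and 147 to 164 CPM in controls. In the Nanog line Hand1 overlapped, at 90.4 to 171 CPM in induced pools and 146 to 161 CPM in controls. The part of these tissues in the Msx values was not tested.

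Of the ligands, Bmp7 passed in both Nanog inductions, in opposite directions. At E9.5 it was 35.0, 48.4 and 38.1 CPM in Nanog-induced pools, against 27.3 and 31.1 CPM in controls (log2 fold change 0.49 ± 0.12, adjusted p = 0.00644). At E7.5 it was 27.3, 25.4 and 23.8 CPM in induced pools, against 36.7 and 34.5 CPM in controls (log2 fold change -0.48 ± 0.12, adjusted p = 0.0403). Neither pair of groups overlapped, and at E9.5 induced pool 2 was the highest of all 22 pools. The E9.5 call was lost without control 2 (0.0797) and with pooled controls (0.239). Against the Oct4-line controls the log2 fold change was 0.20 (adjusted p = 0.338). The E7.5 call was lost without control 2 (0.325), control 3 (0.207), induced pool 3 (0.0857) or induced pool 4 (0.0763), and with DESeq2 (0.0517) or limma-voom (0.0556). Under Oct4 Bmp7 did not pass at either stage, with 31.5, 31.4 and 31.6 CPM in induced pools and 35.3, 35.5 and 36.5 CPM in controls at E9.5, groups that did not overlap (adjusted p = 0.127).

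Bmp4 was higher under Oct4 at E9.5, with 28.0, 26.5 and 28.0 CPM in induced pools and 23.7, 21.7 and 21.0 CPM in controls (log2 fold change 0.33 ± 0.08, adjusted p = 0.0145). The groups did not overlap. The call was lost without control 2 (0.0874), induced pool 3 (0.0771) or induced pool 5 (0.0708), and with DESeq2 (0.277) or 1 model over all 22 libraries (0.422). Bmp4 made up 53.8 ± 1.24% of the summed FPKM of the 3 ligands in Oct4-induced pools and 47.8 ± 2.44% in controls. Markers of the allantois, which expresses Bmp4, summed to 176 to 229 CPM in these induced pools and 116 to 165 CPM in controls, and their part was not tested. In the other inductions Bmp4 did not pass (adjusted p = 0.0662 for Nanog at E9.5, 0.564 for Oct4 at E7.5 and 0.249 for Nanog at E7.5). For Nanog at E9.5 it passed with library totals (0.0445) and without induced pool 2 (0.0285). The models Gm15217 and Gm15222 overlap Bmp4 and held at most 11 counts in any library, and the sources do not say whether counting used strand.

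Bmp2 did not pass in the 4 inductions. Under Oct4 at E9.5 it came closest, with 8.97, 10.6 and 9.88 CPM in induced pools and 5.99, 7.17 and 7.71 CPM in controls (log2 fold change 0.49 ± 0.15, adjusted p = 0.0517), and the groups did not overlap. It passed there with library totals (0.0464), with no filter on low counts (0.0456) and without control 3 (0.0395). At E7.5 it was the 1 gene of the 10 with a fold change above 0 in both lines, with 0.27 ± 0.13 under Nanog (adjusted p = 0.257) and 0.09 ± 0.11 under Oct4 (0.774). Visceral endoderm markers at E7.5 summed to 1383 to 2089 CPM in Nanog-induced pools and 3260.0 to 3708 CPM in controls, and maternal decidua markers to 88.1 to 282 CPM and 87.5 to 123 CPM. The part of both tissues in the Bmp2 values was not tested.

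The differences between induction effects were tested as interaction contrasts. These comparisons share their control and induced pools with the inductions above and are not independent of them. Between the stages, the induction effect on Smad6 was higher at E9.5 than at E7.5 in both lines, by 0.85 ± 0.13 in the Oct4 line (adjusted p = 0.00109) and 1.44 ± 0.22 in the Nanog line (0.000984). Both Smad6 differences kept their call in every alternative run, but other controls were not among the runs for these differences. In the Oct4 line Msx1 (0.50 ± 0.13, adjusted p = 0.0314) and Msx2 (0.64 ± 0.15, 0.0197) also passed, making 3 of 10, all higher, where 6.69% of all genes passed (4.84% higher, 1.85% lower). In the Nanog line Bmp7 (0.96 ± 0.19, adjusted p = 0.00528), Id1 (0.80 ± 0.12, 0.000805), Id3 (0.93 ± 0.12, 0.000308), Msx1 (1.43 ± 0.30, 0.0175) and Msx2 (1.004 ± 0.28, 0.0369) passed beside Smad6, making 6 of 10, all higher, where 12.8% of all genes passed (8.02% higher, 4.79% lower). The Msx calls were lost in several fits without 1 library, in the Oct4 line also with 1 model over all 22 libraries (0.183 for Msx1 and 0.0686 for Msx2) and for Msx1 with limma-voom (0.0513), and in the Nanog line with no filter on low counts (0.0859 and 0.0547). In the Oct4 line the adjusted p reached 0.0995 for Msx1 (without E9.5 control 2) and 0.0729 for Msx2 (without E9.5 induced pool 3), and in the Nanog line 0.0793 for Msx1 and 0.132 for Msx2 (both without E9.5 control 2).

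Between the transgenes at E9.5, the effect of Oct4 was below that of Nanog for Id3 (difference -0.95 ± 0.08, adjusted p = 1.84e-07), Bmp7 (-0.66 ± 0.14, 0.00319) and Id1 (-0.40 ± 0.10, 0.00827). For Id2 it was above that of Nanog, by 0.40 ± 0.08 (0.0031). These are 4 of 10 genes, where 13.5% of all genes passed (5.57% higher, 7.92% lower). Each effect is relative to the controls of its own line. Those controls differed at E9.5, Oct4 over Nanog line, by 0.56 for Id3, 0.29 for Bmp7, 0.50 for Id1 and -0.17 for Id2. Against the Oct4-line controls the Nanog effects were -0.0044, 0.20, -0.10 and -0.043 in that order. Differences between the transgenes and between the control pools cannot be told apart here. The Id1 difference was lost without Nanog-line control 2 (0.0729) and, like that of Id2, with 1 model over all 22 libraries (0.129 and 0.513). At E7.5 the edgeR test passed 0 of 10 genes, where 0.204% of all genes passed (0.138% higher, 0.0659% lower). Bmp7 and Msx1, 2 of the 10, had an unadjusted p under 0.05, and DESeq2 and limma-voom also passed 0. The widest interval there was that of Id4, -0.87 to 1.31, and that of Smad6 was -0.12 to 0.57.

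**Figure D3:**
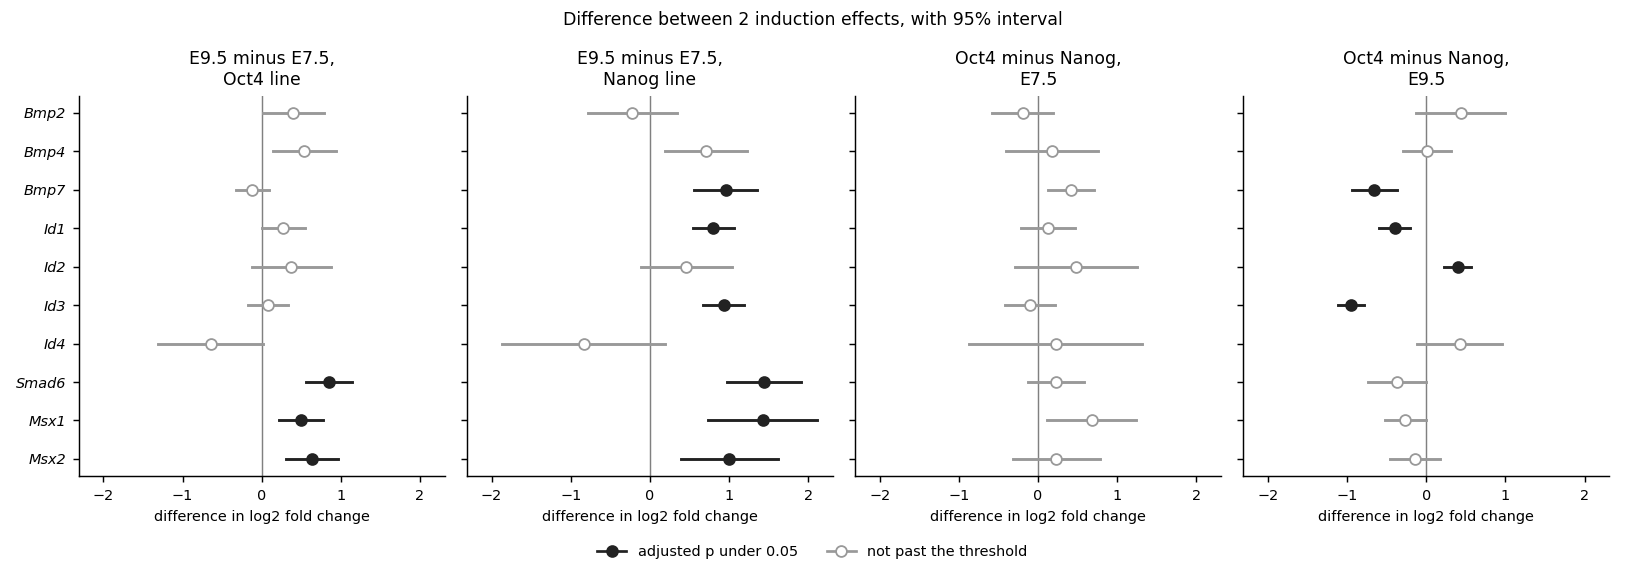
Difference between 2 induction effects for the 10 genes, as log2 fold change minus log2 fold change, with 95% intervals. Filled points passed an adjusted p under 0.05. Smad6 lies above 0 in both comparisons of stages, at 0.85 and 1.44, and Id3 lies at -0.95 in the comparison of Oct4 with Nanog at E9.5.

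The controls of the lines differed at E9.5, a comparison added after seeing the data. There 8 of the 10 genes were higher in Oct4-line than in Nanog-line controls, where 25.6% of all genes passed (13.0% higher, 12.6% lower) and 51.8% did not overlap, and Id2 and Id4 did not pass. Smad6 averaged 18.6 ± 0.8 CPM in Oct4-line and 10.5 ± 1.97 CPM in Nanog-line controls (SD, n = 3 and 2; log2 fold change 0.82 ± 0.13, adjusted p = 0.000617). Id3 averaged 134 ± 3.63 and 90.4 ± 6.56 CPM (log2 fold change 0.56 ± 0.05, adjusted p = 1.68e-05), Id1 54.9 ± 0.284 and 38.7 ± 1.80 CPM (log2 fold change 0.50 ± 0.06, adjusted p = 0.000154), and Msx1 56.3 ± 3.25 and 41.1 ± 0.578 CPM (log2 fold change 0.45 ± 0.07, adjusted p = 0.00055). Bmp2 (0.54 ± 0.18), Bmp4 (0.34 ± 0.10), Bmp7 (0.29 ± 0.08) and Msx2 (0.38 ± 0.10) also passed, and these 4 calls were each lost in at least 2 fits without 1 control library, with adjusted p up to 0.268 for Bmp2, 0.173 for Bmp4, 0.168 for Bmp7 and 0.113 for Msx2, each reached without a Nanog-line control (control 2 for Bmp7 and Msx2, control 3 for Bmp2 and Bmp4). All 4 were also lost with DESeq2 (0.186, 0.117, 0.0907 and 0.0942 in that order) and, with Msx1 (0.109), with 1 model over all 22 libraries. Id2 passed there with no filter (0.0176), with the replicate block (0.0189) and without Oct4-line control 1 (0.012). With that block Bmp2 (0.0515), Bmp4 (0.0855) and Msx2 (0.0607) were lost, and Bmp2 was also lost with limma-voom (0.051). At E7.5, 1 of 10, Id1, was higher in the Oct4 line (log2 fold change 0.33 ± 0.07, adjusted p = 0.0295), where 7.05% of all genes passed (3.57% higher, 3.48% lower) and 46.1% did not overlap, and the call was lost without Nanog-line control 2 (0.154), Nanog-line control 3 (0.211) or Oct4-line control 3 (0.102), with library totals (0.0573) and with limma-voom (0.0678). Smad6 passed at E7.5 with no filter (0.0317), with the block (0.0393) and without Oct4-line control 1 (0.0227). Neither control group received doxycycline, so these differences lie between lines, collections or sequencing batches, which cannot be told apart. Mitochondrial genes took 2.38 to 2.43% of counts in Oct4-line and 2.82 to 2.88% in Nanog-line controls at E9.5.

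**Figure D4:**
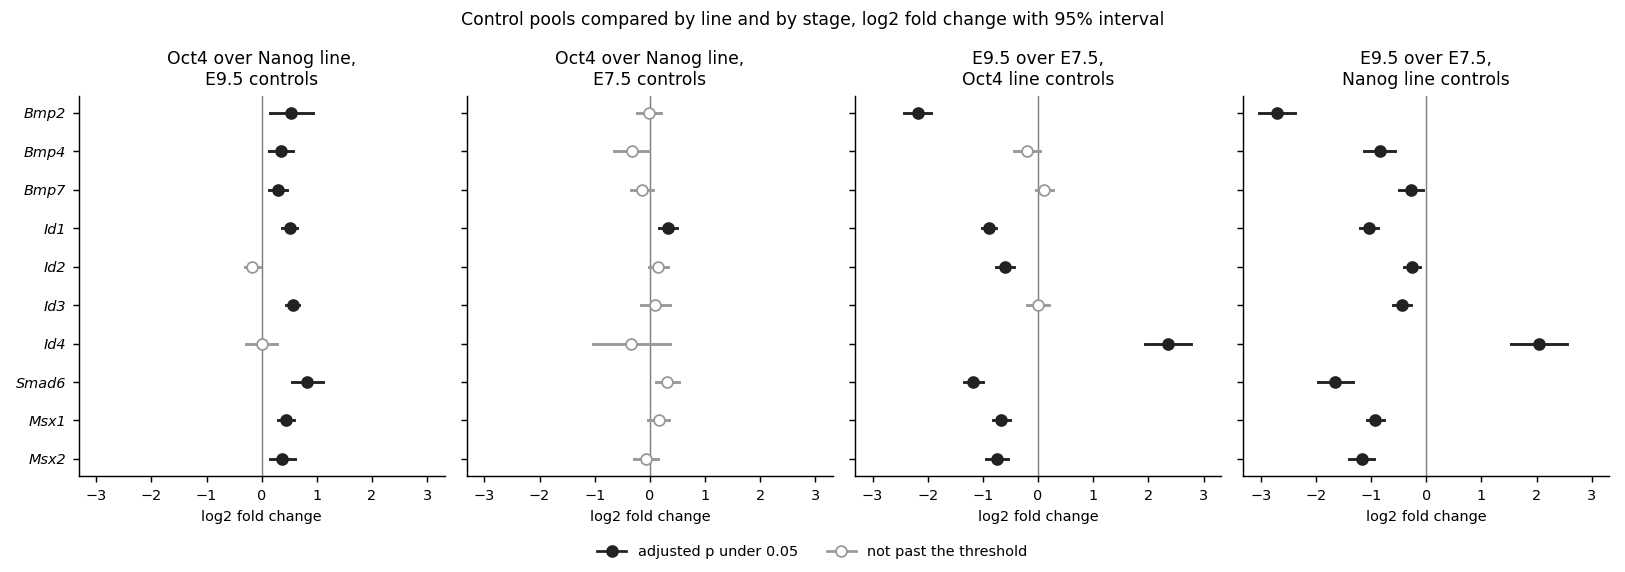
Control pools compared by line (left pair of panels, Oct4 over Nanog line) and by stage (right pair, E9.5 over E7.5) for the 10 genes, as log2 fold change with 95% interval. Filled points passed an adjusted p under 0.05. At E9.5, 8 of the 10 genes lie above 0 and past the test in the comparison of lines, as 13.0% of all genes did. Bmp2 and Id4 lie furthest from 0 in the comparison of stages.

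Other genes of the pathway were read from 5 lists with 52 members, also chosen with earlier results of these data known. Under Oct4 at E9.5 Fst, which encodes the antagonist follistatin, was higher by 1.07 ± 0.12 (47.0 CPM in induced pools, 23.1 in controls), Hand1, a factor of extraembryonic mesoderm and heart, by 0.88 ± 0.14, Hand2, a factor of heart and limb, by 0.38 ± 0.09, and Fstl1, which encodes a secreted follistatin-like protein, by 0.29 ± 0.04. The ligand gene Bmp6 (-0.82 ± 0.24) and the receptor gene Bmpr1b (-0.42 ± 0.13) were lower. Under Nanog at E9.5 the BMP-responsive transcription factors Tbx2 (0.86 ± 0.17), Tfap2c (0.71 ± 0.17), Gata2 (0.67 ± 0.20) and Hand1 (0.72 ± 0.23) were higher, making 4 of 14, where 28.4% of all genes passed (15.4% higher), with a median of 0.31, against 0.00375 over all genes tested. The ubiquitin ligase gene Smurf1 (0.43 ± 0.08) and the receptor gene Acvr2b (0.38 ± 0.10) were higher, and Smurf2 (-0.26 ± 0.07), the receptor gene Bmpr1a (-0.26 ± 0.07) and Fst (-0.39 ± 0.12) lower. These values were taken against the Nanog-line controls. In E9.5 controls 6 of the 14 responsive factors passed as higher in the Oct4 than in the Nanog line, a median of 0.28. Nanog-induced pools overlapped the Oct4-line controls for Tbx2, at 15.24 to 23.6 and 17 to 21.74 CPM. Ranges also overlapped for Hand1 (16.02 to 20.4 and 14.49 to 22.63) and Gata2 (6.861 to 7.622 and 6.196 to 9.297). For Tfap2c they did not (10.88 to 13.48 and 7.829 to 9.136). The part of the control line in these calls was not tested. The Oct4 effect on Fst was above that of Nanog by 1.46 ± 0.17 (adjusted p = 1.61e-05).

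Under Oct4 at E7.5, 14 of 14 transcription factors known to respond to BMP had fold changes below 0, with a median of -0.88, against 0.02 over all genes tested. Of the 14, 5 passed, all lower, where 6.17% of all genes passed (3.91% lower). The T-box gene Tbx2 averaged 1.43 CPM in induced pools and 4.23 CPM in controls (log2 fold change -1.55 ± 0.18). The homeobox gene Dlx3 averaged 3.03 CPM in induced pools and 7.17 CPM in controls (-1.24 ± 0.15), and Hand1 73.5 CPM and 154 CPM (-1.06 ± 0.16). The receptor gene Acvrl1, known from endothelium, was also lower (-1.62 ± 0.17), as was the ligand gene Bmp5 (-1.41 ± 0.17). Of the secreted antagonists 3 of 12 tested were higher, where 2.25% of all genes were, and the median of the 12 was -0.28: Cer1 (1.17 ± 0.15), Fst (0.92 ± 0.13), and Chrd, which encodes chordin (0.87 ± 0.16).

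Under Nanog at E7.5 Bmp5 (-2.06 ± 0.44), Acvrl1 (-0.99 ± 0.25), the receptor Smad gene Smad9 (-1.03 ± 0.26) and the T-box gene Tbx20 (-1.78 ± 0.30) were lower, and Cer1 (1.19 ± 0.18) and Chrd (1.01 ± 0.17) higher. Cer1 averaged 87.7 CPM in Nanog-induced pools and 38.2 in controls, and 58.0 CPM in Oct4-induced pools and 26.0 in controls. Of the 14 responsive factors 1 passed, where 7.78% of all genes passed, and 8 fold changes were below 0, a median of -0.16, against 0.00344 over all genes tested. Fstl1 was lower (-0.57 ± 0.12).

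**Figure D5:**
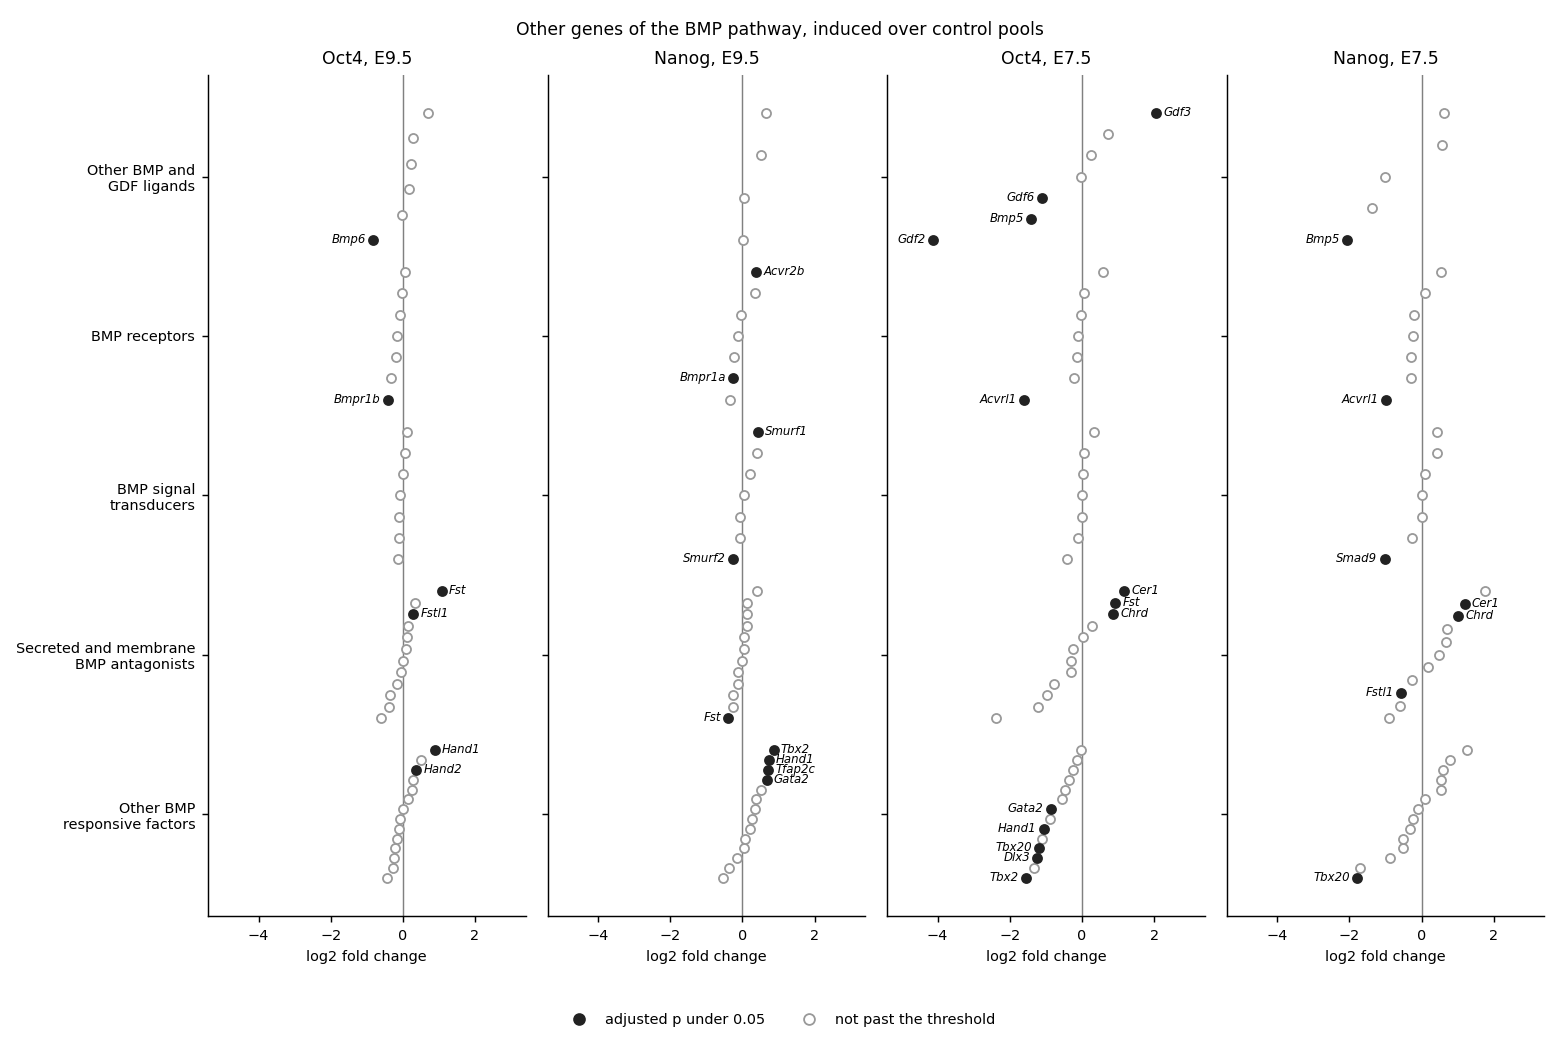
Log2 fold change of induced over control pools for the tested members of 5 lists of other BMP pathway genes, 1 panel per induction and 1 row per list. Each point is a gene, and filled, named points passed an adjusted p under 0.05. All 14 responsive factors lie below 0 under Oct4 at E7.5.

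By pattern over the 8 group means, each of the 10 genes was set against 10378 named genes averaging 5 CPM or more, by the root mean square difference of log2(CPM + 1) after centring. The closest pair among the 10 was Bmp7 and Id3 (0.14), followed by Id1 and Msx2 (0.17) and Id1 and Smad6 (0.19). Bmp7 and Id3 also varied least of the 10 over the group means, with log2 ranges of 0.645 and 0.558. Genes that vary little lie close by this measure. The furthest pair was Bmp2 and Id4 (1.94). Genes nearest to Id3 were Cdc42ep4 (0.10), Arl10 (0.12) and Axin2 (0.12), the last a target of Wnt signalling. Those nearest to Smad6 were Phlda3 (0.17), Bai2 (0.17) and Ddit4 (0.19), and Phlda3 was also the second nearest to Id1 (0.10). Those nearest to Msx2 were Rarg (0.08), a retinoic acid receptor gene, Pde4a (0.10) and Smtnl2 (0.10), and Msx1 was closest to Nid2 (0.12). Id4, with a log2 range of 2.3 over the group means, was closest to Mpped1 (0.28), Ctnna2 (0.33) and St6gal2 (0.335). Bmp2 was closest to Ptk2b (0.15), Bmp4 to Arid5b (0.08), Bmp7 to Pgap3 (0.07) and Id2 to Fhl1 (0.07). These distances describe 8 group means that share their libraries.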

How the data were processed

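RNA-seq of 22 pools of whole mouse embryos was analysed from the deposited count table. Its values are expected counts that the authors estimated per gene with RSEM 1.17, and the submitters' processing notes also name cutadapt, Picard, limma and the mouse build NCBIM37. Whether counting used strand is not given in the sources used here. Between 12.8% and 21.4% of a library's expected counts were not whole, and they were rounded. The table held 0 columns without a sample. Gene lengths and coordinates came from GENCODE mouse release 1 (Ensembl 65) on the same build.

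Each comparison was fitted on the libraries of its own groups with edgeR 4.0.16 in R 4.3.3: TMM scaling, the filterByExpr filter, and the robust quasi-likelihood F test, two-sided, with Benjamini-Hochberg adjustment over all genes tested and a threshold of 0.05. Differences of induction effects were interaction contrasts. Values after ± are the standard error of a log2 fold change or, for levels, the SD. Depth ran from 4.72 to 42.3 M counts, so that 3 counts correspond to 0.0756 to 0.597 CPM, and this covers counting error only. The alternatives were DESeq2 1.42.0, limma-voom (limma 3.58.1), other scalings, no filter, 1 model over all libraries, a replicate block and leaving out each library. Other controls were run for the Nanog inductions only.

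In the Oct4 line at E7.5 the deviations from the group means of same-numbered pools correlated at 0.38, 0.40 and 0.13 over 10061 genes. Pools of different number were not compared in this way. The labels do not say that a number marks a shared litter or day, so the main fits have no replicate block. In 20 pairs of replicates the counts differed by more than sampling noise (chi-square per degree of freedom 1.60 to 67.1). Named genes were the 10 genes, the called genes of the pathway lists in order of p, and the 3 nearest in pattern. For Oct4 at E7.5 not all called genes of the pathway lists are named. The 10 genes and the lists were chosen with earlier results of these data known.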

Additional observations from a re-analysis of the deposited data

Results flagged for a closer look

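Of the differences between induction effects, 13 passed the edgeR test. Between the transgenes at E9.5, Oct4 minus Nanog, they were Bmp7 (-0.66), Id1 (-0.40), Id2 (0.40) and Id3 (-0.95) on the log2 scale, and for Bmp7, Id2 and Id3 the effects had opposite signs in the lines. Between the stages in the Oct4 line, E9.5 minus E7.5, they were Smad6 (0.85), Msx1 (0.50) and Msx2 (0.64). Between the stages in the Nanog line they were Bmp7 (0.96), Id1 (0.80), Id3 (0.93), Smad6 (1.44), Msx1 (1.43) and Msx2 (1.004), each with an effect above 0 at E9.5 and below 0 at E7.5. The E9.5 values of the Nanog line rest on 2 control pools that differed from the Oct4-line controls in 8 of the 10 genes, where 25.6% of all genes did. Of all genes, 13.5% passed for Oct4 minus Nanog at E9.5 and 0.204% at E7.5. For E9.5 minus E7.5, 6.69% of all genes passed in the Oct4 line and 12.8% in the Nanog line.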

How the results depend on the processing

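Of 180 recomputed counts of called members, 141 stayed within 1.5 times the reported count. With 1 model over all 22 libraries the count was 7 for Nanog at E7.5 (reported 4), 5 for Nanog at E9.5 (8), 2 for Oct4 at E9.5 (5), 1 for the stage difference in the Oct4 line (3), 2 for Oct4 minus Nanog at E9.5 (4) and 3 for the control lines at E9.5 (8). All genes called with that model numbered 2737 and 1958 for Nanog at E7.5 and E9.5 (main fits 1099 and 3772). They numbered 312 (1297) for Oct4 at E9.5 and 1079 (1094) for the stage difference in the Oct4 line. They numbered 229 (1970) for Oct4 minus Nanog at E9.5 and 947 (3829) for the control lines at E9.5. With controls of both lines pooled the member count was 7 for Nanog at E7.5 and 1 at E9.5, and with the Oct4-line controls 1 at E9.5. All genes called there numbered 2939, 138 and 390 in that order. DESeq2 gave 2 members for Oct4 at E9.5 and 4 for the control lines at E9.5, with 581 and 2409 genes called in all. For the control lines at E7.5 (1) the member count was 0 with no TMM and with limma-voom, and 2 with no filter and with the replicate block. All genes called there numbered 1316, 381, 1996 and 2478 in that order (main fit 1139). Leaving out 1 library gave 0 to 3 members for Oct4 at E7.5 (2), 0 to 4 for Nanog at E7.5, 2 to 5 for Oct4 at E9.5, 5 to 8 for Nanog at E9.5, 1 to 5 for the Oct4-line stage difference, 3 to 4 for Oct4 minus Nanog at E9.5, 0 to 2 for the control lines at E7.5 and 4 to 8 at E9.5. In the last 4 of these, all genes called numbered 734 to 1361, 837 to 2178, 90 to 3139 and 1744 to 3608. Signs turned in the following fits. Nanog at E9.5 against Oct4-line controls: Bmp2 -0.48, Bmp4 -0.023, Id1 -0.10, Id3 -0.0044, Msx2 -0.0078 and Smad6 -0.064. Bmp2 for Nanog at E9.5 was -0.28 with pooled controls, and -0.17 (without induced pool 3) to 0.20 without 1 library, with -0.072 without control 3. Id1 for Oct4 at E9.5 was -0.00085 with no filter, -0.0052 with 1 model and -0.0065 (without induced pool 5) to 0.021 without 1 library, and Id2 for Oct4 at E7.5 was -0.41 to 0.0085 (without induced pool 1). Id3 between stages in the Oct4 line was 0.19 with no TMM, 0.0041 with limma-voom, 0.016 with 1 model, 0.10 and 0.0053 without control 1 of E7.5 or E9.5, and 0.0022 with the block. For the control lines at E7.5, Bmp2 was 0.010 with no filter, 0.015 without Oct4 control 2 and 0.016 without Nanog control 3, Id3 was -0.017 (without Oct4 control 1) to 0.18 without 1 library and -0.018 with the block, and Id4 was -0.60 to 0.060 (without Nanog control 3). For the control lines at E9.5, Id4 was 0.034 with no TMM, 0.011 with limma-voom, and -0.13 to 0.13 (without Nanog control 3) without 1 library, with 0.062 without Oct4 control 3. The causes were not tested. All genes called for Oct4 at E9.5 numbered 1297 by edgeR, 625 to 1290 without 1 library and 312 to 1870 in the other alternatives. For Nanog at E9.5 they numbered 3772, 1482 to 3487 and 138 to 4274, for Oct4 at E7.5 991, 438 to 1101 and 943 to 1638, and for Nanog at E7.5 1099, 161 to 1383 (161 without control 2 and 171 without control 3) and 858 to 3744. The replicate block gave 3 members and 1287 genes for Oct4 at E7.5, and 7 members and 3359 genes for Nanog at E9.5, where same-numbered pools did not correlate (-0.071 and -0.058). No paired analysis was possible for Oct4 at E9.5 and Nanog at E7.5 because their groups share 1 number. Depth limits Id4 at E7.5 most, with as few as 6 counts.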
